A study of Mus musculus with 1989 samples.

Results

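The peaks described here are the 2000 of 138317 scATAC-seq peaks that were open in the largest share of unsorted mouse thymocytes. A single-cell ATAC-seq library marks accessible DNA by transposase insertion, and a peak was counted as open in a cell where its deposited count was above 0. Peaks were ranked by the share of open cells over 1075 total thymocytes with 1000 or more counts, so the members were chosen by their measured shares in these cells, and those shares are given as a description without a test. Members were not open in most cells: 404 of the 2000 (20.2%) were open in 50% or more of the cells, the median share was 39.7%, and the share fell from 89.9% at rank 1 to 31.1% at rank 2000. They are therefore called the 2000 peaks most often open. Each peak of the table is 4000 bp wide and many overlap, and the 2000 peaks joined into 1803 regions, of which 1633 held a single peak. All cells came from thymus of male C57BL/6 mice aged 7 weeks. The study compared total thymocytes (1084 cells) with cells sorted as DN (double negative, 182 cells), DP (double positive, 125 cells), CD4 (119 cells) and CD8 (116 cells), and 1 droplet scRNA-seq library of total thymus. The labels tie no cell to an animal. Each group was therefore treated as 1 sample, no p-value was computed, and the intervals given for shares are exact binomial 95% intervals that cover counting error only. Gates and purity of the sorts are not given in the sources used here.

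T cell precursors enter the thymus without the coreceptors CD4 and CD8 (DN), express both while the T cell receptor α gene rearranges (DP), and keep 1 coreceptor once selected (CD4 or CD8). Open chromatin in such cells lies at promoters, where the start of a transcribed gene is kept free of nucleosomes, and at enhancers, which lie farther away and are more often used by particular cell types. Promoters of genes used by every cell are commonly CpG-rich and open in many tissues.

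The sequences that carry the contrast between both kinds of member are the central 300 bases of 8 peaks, printed 5′ to 3′ on the plus strand of GRCm38, in lower case with capitals for each match to a motif searched here on both strands. The first 3 are promoters among the most often open peaks, at chr1:75317572-75317871 (Dnpep), chr14:21500481-21500780 (Kat6b) and chr15:102405690-102405989 (Sp1). The next 2 are promoters that differed between sorts, at chr17:72836284-72836583 (Ypel5) and chr7:6362657-6362956 (Zfp78). The last 3 lie away from coding starts, at chr14:54227460-54227759 (downstream of Trac), chr6:41554444-41554743 (between Trbc2 and Trbv31) and chr2:101551467-101551766 (upstream of Rag2).
Dnpep start: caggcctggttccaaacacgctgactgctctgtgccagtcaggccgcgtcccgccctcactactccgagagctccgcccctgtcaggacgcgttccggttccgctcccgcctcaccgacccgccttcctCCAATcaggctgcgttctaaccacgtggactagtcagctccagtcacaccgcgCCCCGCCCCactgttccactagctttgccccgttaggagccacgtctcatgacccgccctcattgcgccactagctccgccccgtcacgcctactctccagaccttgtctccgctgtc
Kat6b start: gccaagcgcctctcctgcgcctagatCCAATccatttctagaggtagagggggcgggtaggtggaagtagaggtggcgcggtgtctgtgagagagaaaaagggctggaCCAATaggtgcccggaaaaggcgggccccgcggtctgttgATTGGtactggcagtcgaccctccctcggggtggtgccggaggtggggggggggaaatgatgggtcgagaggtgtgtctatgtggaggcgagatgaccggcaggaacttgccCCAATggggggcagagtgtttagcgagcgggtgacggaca
Sp1 start: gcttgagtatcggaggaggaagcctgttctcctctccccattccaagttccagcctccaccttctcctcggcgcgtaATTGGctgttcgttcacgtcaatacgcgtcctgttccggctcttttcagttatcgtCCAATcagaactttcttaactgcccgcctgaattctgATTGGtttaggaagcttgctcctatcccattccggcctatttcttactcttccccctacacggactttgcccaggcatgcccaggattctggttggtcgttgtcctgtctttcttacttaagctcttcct
Ypel5 start: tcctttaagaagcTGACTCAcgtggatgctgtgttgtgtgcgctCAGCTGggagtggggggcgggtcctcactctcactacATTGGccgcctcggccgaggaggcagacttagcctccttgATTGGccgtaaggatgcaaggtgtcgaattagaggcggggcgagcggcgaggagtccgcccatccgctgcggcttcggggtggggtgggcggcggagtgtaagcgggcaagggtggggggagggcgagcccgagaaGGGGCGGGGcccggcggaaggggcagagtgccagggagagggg
Zfp78 start: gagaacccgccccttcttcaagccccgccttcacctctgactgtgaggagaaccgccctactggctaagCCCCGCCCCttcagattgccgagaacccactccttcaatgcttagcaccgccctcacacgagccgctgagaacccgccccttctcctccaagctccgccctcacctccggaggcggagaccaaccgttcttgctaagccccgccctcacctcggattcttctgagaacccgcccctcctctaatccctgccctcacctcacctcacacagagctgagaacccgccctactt
downstream of Trac: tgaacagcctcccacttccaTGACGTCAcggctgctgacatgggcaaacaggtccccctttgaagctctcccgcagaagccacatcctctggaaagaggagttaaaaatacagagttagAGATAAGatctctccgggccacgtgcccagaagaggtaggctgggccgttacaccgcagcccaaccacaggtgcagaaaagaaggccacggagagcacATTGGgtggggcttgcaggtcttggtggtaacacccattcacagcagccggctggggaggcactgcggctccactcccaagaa
between Trbc2 and Trbv31: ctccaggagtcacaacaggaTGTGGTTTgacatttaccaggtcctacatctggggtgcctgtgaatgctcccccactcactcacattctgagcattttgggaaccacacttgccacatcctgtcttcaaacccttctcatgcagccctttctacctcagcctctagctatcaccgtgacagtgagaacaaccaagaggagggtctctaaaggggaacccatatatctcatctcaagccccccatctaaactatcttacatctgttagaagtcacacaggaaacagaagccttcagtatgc
upstream of Rag2: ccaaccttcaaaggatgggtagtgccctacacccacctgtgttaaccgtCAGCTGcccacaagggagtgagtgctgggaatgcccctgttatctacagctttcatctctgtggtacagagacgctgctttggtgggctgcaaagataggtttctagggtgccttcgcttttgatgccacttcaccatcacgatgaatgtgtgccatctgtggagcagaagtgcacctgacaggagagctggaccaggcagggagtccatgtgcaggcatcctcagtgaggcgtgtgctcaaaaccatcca

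The capitals in the Dnpep, Kat6b and Sp1 promoters marked 1, 4 and 3 CCAAT boxes, the motif of NFY, and in Dnpep also 1 GC box of SP factors. The Ypel5 sequence held 2 CCAAT boxes, 1 GC box, 1 E protein motif and 1 AP-1 motif, and the Zfp78 sequence held 1 GC box. The window past Trac held 1 CRE, 1 GATA and 1 CCAAT match, the window before Trbv31 held 1 RUNX match, and the window upstream of Rag2 held 1 E protein match. CpG dinucleotides numbered 26, 18 and 14 in the first 3 promoters, against 10, 1 and 5 in the 3 windows away from starts. A match is a description of letters and not a bound site.

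**Figure D1:**
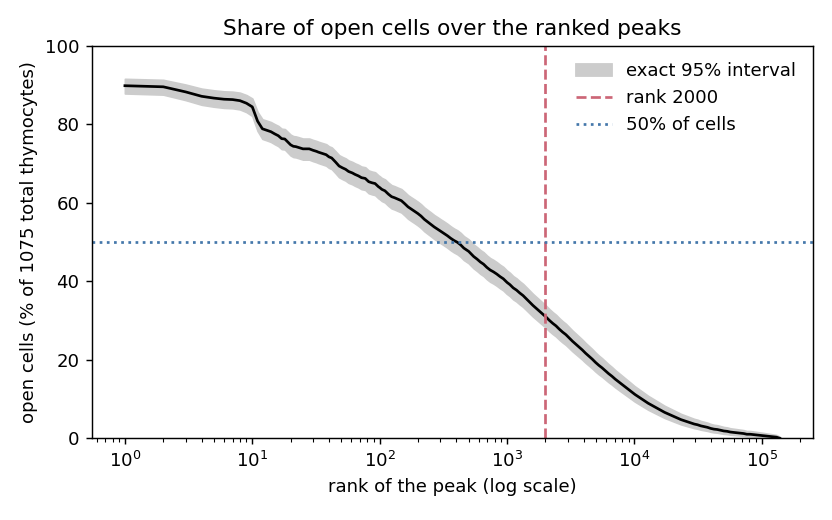
Share of open cells (y axis, percent of 1075 total thymocytes) against the rank of the peak (x axis, log scale), with the exact 95% interval shaded. The curve crosses 50% of cells after rank 404 and passes rank 2000 (dashed line) at 31.1%.

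At the head of the list, only 19 peaks were open in 75% or more of the total cells, and the 10 peaks at the head of the curve were an rRNA locus and the Dnpep promoter. At the limit, the peaks at the starts of Hdac1, Cnbp and Hook2 (ranks 1998 to 2000, all 31.1%) stood just inside, and a peak in an intron 8213 bp upstream of Prickle3 (31.1%) and the starts of Bzw1 and Slc43a2 (31.0% each) just outside. In all, 9 peaks had the share of the last member, of which 8 were taken, by their order in the table. Over the whole table the median share was 1.21%, and 57287 peaks were open in 1% or fewer of the total cells.

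The region with the highest share was a run of 11 overlapping peaks at chr17:39841407-39850520, around the annotated rRNA gene CT010467.1 and the lincRNA Gm26917. rRNA genes, which encode the RNA of the ribosome, are present in many copies in the genome, of which the assembly holds few. Its first peak was open in 89.9% of total cells, 82.3% of DN, 80.2% of DP, 81.2% of CD4 and 68.1% of CD8 cells. The run also stood apart in the number of counts: its peaks held 4.05 to 12.6 counts per open cell, whereas the median over the members was 1.42 and 1941 of 2000 members held under 2. Only 5 of the 16 members with 4 or more counts per open cell lay outside the run. Of these, 2 covered Rn7sk, the gene of the 7SK RNA that restrains transcription elongation (8.31 and 8.29 counts per open cell), and the others lay nearest to Gm8797 (21.3), Limd1 (13.1) and Axin2 (4.50). How reads of repeated copies were assigned is not given in the sources used here, and its part in these shares was not tested.

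Behind the rRNA run, the 9 regions with the highest shares were all promoters. They belonged to Dnpep, an aminopeptidase (84.5% of total cells), Kat6b, a histone acetyltransferase (80.8%), Rnf5, a ubiquitin ligase (78.5%), Cic, a transcriptional repressor (78.1%), the shared start of Fam72a and Srgap2 (77.1%), Rnf44 (76.4%), Sp1, a transcription factor that binds GC boxes (76.3%), Khsrp, an RNA-binding protein (75.4%), and Stip1, a co-chaperone (74.8%). In the sorted cells the same promoters were open less often, at 33.1 to 63.4% of DN, 21.6 to 63.8% of DP, 35.4 to 71.9% of CD4 and 27.5 to 65.9% of CD8 cells, with Rnf44 lowest in every sort. The Sp1 promoter, for example, was open in 63.4% of DN, 57.8% of DP, 60.4% of CD4 and 59.3% of CD8 cells. The next region in rank was no promoter but a peak 32.0 kb upstream of Zbtb20, a zinc finger gene, open in 74.4% of total cells and in 63.4%, 56.0%, 66.7% and 54.9% of the DN, DP, CD4 and CD8 cells.

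The position of the members was not used in their choice, and it set them apart from the table. Of the 2000 peaks, 1712 (85.6%) had their centre within 1000 bp of the start of a protein-coding transcript, against 76.2% of the next 2000 peaks in rank and 19.8% of all peaks. The median distance to a coding start was 120 bp, compared with 103 bp in the next 2000 peaks and 12035 bp over all peaks. Among members at a start, 1380 (80.6%) were centred upstream of it, with a median of 86 bp, as were 73.8% of the next 2000 peaks at a start and 47.7% of all peaks at a start. The starts of genes on both strands met at 308 members (15.4%), as at Ormdl2 and Sarnp or Maf1 and Sharpin, against 1.64% of all peaks, and at 18.0% of the members at a start against 14.6% of the next 2000 peaks and 8.31% of all peaks at a start. Members at such paired starts had a median share of 40.8%, close to the 39.8% of the other members at a start. The X chromosome held 11 members (0.55%), while it held 1.49% of all peaks.

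**Figure D2:**
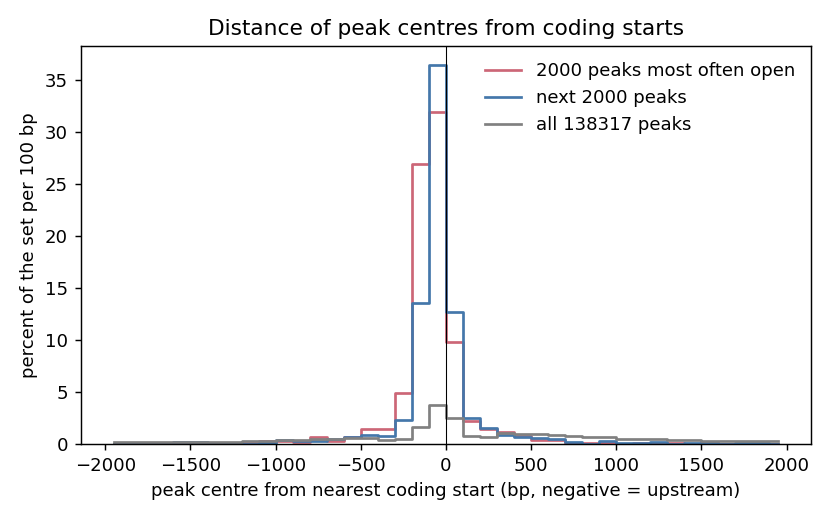
Percent of each set per 100 bp (y axis) against the distance of the peak centre from the nearest coding start (x axis, bp, negative upstream). The 2000 peaks most often open and the next 2000 peaks pile up just upstream of the start, where 85.6% and 76.2% lie within 1000 bp, while all peaks spread widely (19.8%).

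The sequence of the members was that of CpG-rich promoters. GC content of the central 300 bp was 63.5% ± 7.44 (mean ± SD over 2000 peaks), against 50.9% ± 8.57 over all peaks, and CpG dinucleotides numbered 24.2 ± 9.85 against 7.29 ± 8.91. Repeats covered 5.30% of this window in the members and 18.3% over all peaks. Part of this went with position, since all peaks at a start had 18.4 CpG and those of the members at a start 25.9. CpG richness was not particular to the members, since the next 2000 peaks had 62.8% GC, 23.0 CpG and 6.82% repeats, and those of them at a start had 26.7 CpG. Members away from a start were also richer, with 14.4 CpG against 4.55 in all peaks away from a start.

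Motif letters differed in the same way. CCAAT, the NFY box, stood in 59.5% of the members against 43.8% of the next 2000 peaks and 28.9% of all peaks, and at starts alone in 63.1% against 30.6% of all peaks at a start. GGGGCGGGG, the GC box of SP factors, stood in 31.1%, 24.2% and 4.35%. The ETS motif CCGGAAGT (5.75%, 7.55% and 1.43%), the NRF1 motif GCGCATGCG (3.10%, 5.20% and 0.50%) and the YY1 motif AAGATGGCG (2.60%, 4.15% and 0.56%) were higher in the next 2000 peaks than in the members. The CRE TGACGTCA stood in 3.60% of the members, 3.60% of the next 2000 peaks and 0.74% of all peaks, and the E2F motif GGCGGGAA in 5.10%, 3.90% and 0.99%. Unlike the ETS motif, the RUNX, TCF1 and LEF1, E protein, GATA and AP-1 motifs were no more frequent in the members than in the table. TGTGGTTT of RUNX stood in 1.80% against 4.19% of all peaks and ATCAAAG of TCF1 and LEF1 in 3.15% against 4.96%. CAGCTG of E proteins stood in 15.1% against 20.1%, AGATAAG of GATA factors in 1.40% against 3.56% and TGANTCA of AP-1 in 3.45% against 8.73%. The core motif of CTCF stood in 0.85% against 2.70%. Among the 288 members away from a start the order changed, with RUNX letters in 7.64% and the E protein letters in 31.9%, against 0.82% and 12.2% of the members at a start, and against 4.83% and 21.1% of all peaks away from a start. For RUNX and E protein letters this was not particular to the members, since the next 2000 peaks held them in 8.00% and 41.3% of those away from a start. GATA and AP-1 letters stood in 3.47% and 6.25% of the members away from a start, below the 3.94% and 9.61% of all such peaks. TCF1 and LEF1 letters stood in 6.60%, against 5.55% of all such peaks and 3.79% of the next 2000 away from a start. The matches were counted on both strands of the central 300 bp, short motifs occur often by their letters alone, and a GC-rich window holds more GC-rich letters.

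At the level of genes, 1863 of 21924 protein-coding genes (8.50%) had a member at a start, or 14.3% of the 13052 genes with any peak there. The lists of genes described next were written with earlier results of these data known. Genes of translation were the most frequent, with a member at 9 of 10 genes, among them Eif5a (66.2% of total cells), Pabpc1 (60.7%), Eif4g2 (57.9%) and Eef1a1 (32.4%). Splicing genes followed at 10 of 14, among them Hnrnpl (57.9%) and the helicase Ddx5 (54.1%). Housekeeping genes had 7 of 14, including Actb (56.7%), Rpl13a (47.6%) and Gapdh (33.8%), and genes of chromatin architecture 7 of 16, including Yy1 (53.6%), Ctcf (53.5%) and Ep300 (42.0%). In contrast, none of 14 proteasome genes had a member, although all 14 had a peak at a start, with a median share of 19.6%. None of 24 marker genes of other lineages had a member, and only 10 of them had a peak at all, with a median share of 2.09%.

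Genes of T cell identity and signalling had a member at 5 of 34 starts (14.7%), close to the 14.3% over all genes with a peak. These were Fyn, a kinase of the receptor pathway (43.2% of total cells), Ets1 (35.9%), the CD3 chain gene Cd3g (35.3%), Satb1, a chromatin organizer (32.7%), and the E protein gene Tcf3 (32.0%). In the order DN, DP, CD4 and CD8, Fyn was open in 28.0%, 23.3%, 15.6% and 27.5% of the cells, Ets1 in 21.1%, 12.1%, 14.6% and 13.2%, and Cd3g in 25.1%, 19.8%, 25.0% and 35.2%. Satb1 was open in 12.0%, 9.48%, 18.8% and 14.3%, and Tcf3 in 18.3%, 12.9%, 19.8% and 17.6%. Genes that mark a stage had a member at 4 of 29 starts, among them Cd8a, Cd8b1 and Egr1. Cd8b1 (47.6% of total cells) was open in 12.0%, 19.8%, 14.6% and 30.8%, and Cd8a (35.2% of total cells) in 6.29%, 16.4%, 2.08% and 19.8%, both lowest in DN or CD4 and highest in CD8. Egr1, an early gene of receptor signalling (52.8% of total cells), was open in 26.9%, 15.5%, 27.1% and 27.5%. In thinned cells and by expected shares none of the 42 listed genes with a member was past the fold between sorts that is described below, and without thinning 10 were (background 16.6% of all peaks tested that way), among them Cd8a, Cd8b1, Ddx5 and Ep300.

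How stable the peaks were over the sorts was examined next, in cells the ranking had not used. The total cells it had used were nearest to DP in counts near DP marker genes (198 against 177 per 100000). The choice therefore did not treat the sorts alike. After the same limit of 1000 counts, 175 DN, 116 DP, 96 CD4 and 91 CD8 cells remained, which left out 7, 9, 23 and 25 cells, and 9 of the total cells. Median totals ran from 3657 counts in DN to 5308 in CD4 cells, with 3959 in DP cells, against 5805 in the total cells, and no 2 cells had identical values. The members held 15.1% ± 3.12 of the counts of a DN cell (mean ± SD over cells), 16.4% ± 3.49 of a DP cell, 14.6% ± 3.10 of a CD4 cell and 13.8% ± 1.84 of a CD8 cell. In the total cells, which had chosen them, the value was 22.6% ± 2.99. The means of the 36 label series of total cells, as the first number of their names gives them, ran from 21.0 to 25.0%, above the mean of each sort. The 22 DP cells with label numbers starting with 31 had a mean of 21.0% and reached the lowest of these series. The next 2000 peaks in rank held 11.3% of the counts in total cells and 8.04%, 9.11%, 7.84% and 8.01% in the sorts. Choice of the peaks in the total cells and differences between total and sorted libraries cannot be told apart in these values.

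Counts differ between cells, so shares were also computed after each cell was thinned at random to 1000 counts. A thinned cell had a median of 954 to 961 open peaks in the 5 groups, and a median of 134 open members in DN, 143 in DP, 130.5 in CD4 and 127 in CD8 cells, against 208 in total cells. The median thinned share over the 2000 peaks was 5.71% in DN, 6.03% in DP, 6.25% in CD4 and 5.49% in CD8 cells, and 8.93% in total cells. Without thinning the medians were 26.9%, 21.6%, 26.0% and 25.3%, and 39.7% in total cells. Members open in 50% or more of the cells without thinning numbered 43 in DN, 31 in DP, 69 in CD4 and 57 in CD8. The medians over the members therefore differed little between the sorts, while a single median value carries a wide interval: 7 of 116 DP cells is 6.03%, with an interval from 2.46 to 12.0%.

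**Figure D3:**
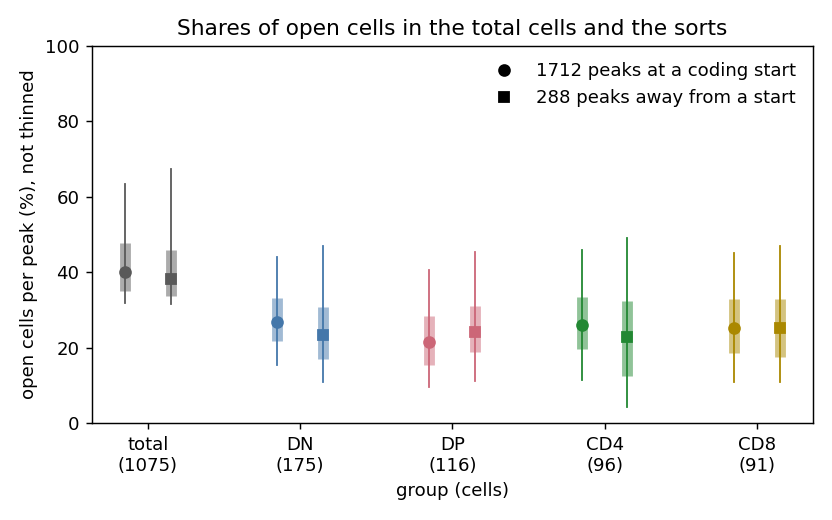
Share of open cells per peak (y axis, percent, not thinned) in the total cells and the 4 sorts (x axis), for 1712 members at a coding start (circles) and 288 away from one (squares). Symbols are medians, thick bars the quartiles and thin lines the 5th to 95th percentiles over peaks. The medians at starts were 40.1% in total cells and 21.6 to 26.9% in the sorts, and the lowest CD4 shares belonged to members away from a start.

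When each sort was ranked on its own, many members kept high ranks, fewer of them in thinned cells. The 2000 peaks most often open in each sort shared 1362 with the members in DN (68.1% of each list), 1205 in DP (60.2%), 1104 in CD4 (55.2%) and 1162 in CD8 (58.1%), and 764 members (38.2%) were in all 4 lists. Thinned cells gave 1146, 1052, 958 and 943 shared peaks, with 434 in all 4 lists. Ties at the end of these lists were long: in thinned CD8 cells 1208 peaks of the table had the share of the last peak taken. In the top 20000 of the 138317 peaks of a sort, not thinned, lay 99.8% of the members in DN, 99.6% in DP, 97.6% in CD4 and 98.7% in CD8. This limit is loose, since the peak at rank 20000 was open in 5.67% of total cells. Without thinning, the lists of 2 sorts shared from 1139 peaks (DP and CD4) to 1337 (DN and CD8) over all pairs of sorts.

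A peak was called past the fold where the thinned shares of 2 sorts differed by 1.5 times or more and their intervals did not overlap. It was tested where its thinned share reached 5% in at least 1 sort, which 1826 of the 2000 members and 6975 of all peaks did. Between the highest and the lowest sort, 79 members were past the fold, against 4.56% of all tested peaks, a share near the 4.33% of the tested members. Against DP, DN was higher at 5 members (background 0.201%) and lower at 15 (1.22%), CD4 was higher at 3 (0.459%) and lower at 16 (0.573%), and CD8 was higher at 1 (0.344%) and lower at 11 (0.287%). A member that is not past the fold is not thereby shown to be equally open, since the intervals were wide. These directions depended on the thinning. Without it, DN was higher than DP at 107 members and lower at 27, CD4 at 53 and 49 and CD8 at 36 and 7, so that the balance turned in all 3 comparisons, and another random thinning gave 27 members lower in DN. Without thinning, 269 members were past the fold between the highest and the lowest sort, against 16.6% of the 48809 peaks then tested.

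A single random thinning leaves few open cells per peak, and the 10 members with the largest ratio show this. They lay nearest to Psmg1, Gngt2, Inpp5k, Pag1, Gtf2h4, Mef2d, Sarnp, Tex14, Fmc1 and Axin1. Each had 1 open cell in its lowest sort once thinned. For ratios a count of 0 was set to 3 cells and a count of 1 was kept. A peak with 0 open cells in a sort could so rank below one with 1. The peak near Hlx (17 of 116 DP and 0 of 96 CD4 cells) had a ratio of 4.69, and that near Gtf2h4 (15 of 116 and 1 of 96) 12.4. The 10 are the largest by this rule, which left such peaks lower. The peak 121213 bp from Psmg1 was at 3.43%, 18.1%, 1.04% and 11.0% in thinned DN, DP, CD4 and CD8 cells, and at 20.6%, 40.5%, 19.8% and 34.1% without thinning, lowest in CD4 and highest in DP both times. The Inpp5k promoter, in contrast, was at 1.04% in CD4 and 14.3% in CD8 cells once thinned and at 29.2% and 26.4% without thinning, where the order turned. Of the 10, 4 were past the fold without thinning. For this reason the share expected over all possible thinnings to 1000 counts was computed as well, a choice made after the thinned values were seen, and none of the 10 was past the fold by it.

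By expected shares 21 members in 13 regions were past the fold, against 0.92% of the peaks tested that way, and 17 of them were also past it after the single thinning. By place, 19 lay among the 288 members away from a coding start (6.60%) and 2 among the 1712 at a start (0.117%). Of the 19, 8 were overlapping peaks of the single rRNA run and 1 covered Rn7sk, so they are not 19 separate places. These shares are over all members, tested or not. Over the 6975 peaks tested above the values were 1.37% away from a start and 0.100% at a start. Lower in DN than in DP were 6 members (background 0.3%) and lower in CD4 than in DP 9 (background 0.24%). The 21 members include 8 peaks of the rRNA run, highest in DN and lowest in CD8, and the peaks nearest to Gsta4, which covers Rn7sk, and to Gm8797, both highest in DN and lowest in CD4 by expected shares. DN also holds cells of label numbers starting with 1, 2 and 32, of which no other sort has any. Within the series that hold all 4 sorts, DP was above DN at 2 of the 8 rRNA peaks for numbers starting with 4 and at 7 of 8 for those starting with 31, in thinned cells. The peak nearest to Gsta4 was at 3.33% of DN and 3.17% of DP cells in the first and at 4.35% and 4.55% in the second. The peak nearest to Gm8797 was at 16.7% and 6.35% in the first and at 30.4% and 59.1% in the second.

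A further 9 members, in 8 regions and none at a coding start, were highest in DP and lowest in CD4 without thinning. Members were ranked in total cells, where counts near DP marker genes stood at 198 per 100000. They stood at 177 in DP, 91.5 in CD8, 50.3 in DN and 45.5 in CD4 cells. The choice therefore favoured peaks open in DP. A peak could also reach the 5% limit through DP alone, as near Hlx (expected 1.71%, 12.9%, 0% and 3.30% in DN, DP, CD4 and CD8). The direction is a description, and the part of the choice in it was not tested. A peak whose centre lies 73102 bp upstream of Rag2 was open in 40.6% of total cells, 14.9% of DN, 35.3% of DP, 3.12% of CD4 and 22.0% of CD8 cells, and its neighbour at 72221 bp in 33.5%, 5.71%, 28.4%, 2.08% and 12.1%. Rag1 and Rag2 encode the recombinase that rearranges T cell receptor genes, and distal elements upstream of Rag2 are known to drive both genes in DP thymocytes. The promoters of the genes themselves were not in the list. They stood at rank 2071 (Rag1, 30.6% of total cells), just outside it, and at rank 3559 (Rag2, 23.6%), and were open in none of 96 CD4 cells (3 of 96 cells, the limit taken for a count of 0, is 3.12%, and the exact interval ends at 3.77%).

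A further 6 regions of this kind were the following. In an intron of Ptpn14, a tyrosine phosphatase gene, the peak was open in 22.9% of DN, 44.8% of DP, 8.33% of CD4 and 30.8% of CD8 cells. A peak 4061 bp upstream of Clk3 was at 16.0%, 37.9%, 5.21% and 20.9%, and a peak 43446 bp upstream of Medag at 20.6%, 35.3%, 4.17% and 17.6%. The peak 321364 bp from Hlx was open in 8.57% of DN, 33.6% of DP and 13.2% of CD8 cells and in 0 of 96 CD4 cells, and an intronic peak of Rmi2 in 12.0%, 28.4% and 18.7% and again in 0 of 96 CD4 cells. A peak 6086 bp upstream of Phxr2 was at 14.9%, 25.9%, 3.12% and 18.7%. In all 8 regions DP was the highest sort and CD4 the lowest, and DN and CD8 lay between. Median totals were 5308 counts in CD4 and 3959 in DP cells, and the part of depth in these shares was not tested.

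The order of DP over CD4 was next examined within both label series that hold all 4 sorts, those whose cell numbers start with 4 and with 31, without thinning. Within the first, the peak upstream of Rag2 was open in 22 of 63 DP and 3 of 55 CD4 cells, and the peak near Hlx in 25 of 63 and 0 of 55. Within the second, the numbers were 4 of 22 DP and 0 of 41 CD4 cells upstream of Rag2, and 5 of 22 and 0 of 41 near Hlx. The intervals of DP and CD4 did not overlap at either peak in the first series and overlapped at both in the second. In cells thinned to 1000 counts the peak upstream of Rag2 was open in no DP and no CD4 cell of the second series. In this second series median totals were alike, 1585.5 counts in DP and 1543 in CD4 cells. By the rule for calls, 21 members were past the fold within the first series, against 0.332% of all peaks tested there, and 5 within the second, against 0.0324%. Most were not the members called over all cells. Also past the fold over all thinned cells were 2 at a start and 4 away from one in the first series. In the second, 2 away from a start were. Lower in CD4 than in DP were 4 members within the first series and 5 within the second.

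The 2 promoters past the fold by expected shares went in opposite directions. Without thinning, the Ypel5 promoter was open in 38.9% of DN, 60.3% of DP (50.8 to 69.3%), 34.4% of CD4 (25.0 to 44.8%) and 47.3% of CD8 cells. It was not past the fold after the single thinning. Within numbers starting with 4 it was open in 11 of 30 DN, 39 of 63 DP, 27 of 55 CD4 and 42 of 77 CD8 cells, not thinned. Within those starting with 31 it was open in 5 of 23, 11 of 22, 6 of 41 and 1 of 14. The DP interval overlapped that of each other sort in both series. The promoter of Zfp78, a zinc finger gene, was the reverse. Without thinning it was open in 51.4% of DN (43.8 to 59.0%), 15.5% of DP (9.46 to 23.4%), 41.7% of CD4 and 39.6% of CD8 cells. DP then lay below each of the other sorts with no overlap of intervals. Once thinned, the DP interval (1.41 to 9.77%) overlapped those of CD4 (5.11 to 18.3%) and CD8 (4.62 to 17.9%). Without thinning, within numbers starting with 4, the Zfp78 promoter was open in 12 of 30 DN, 11 of 63 DP, 29 of 55 CD4 and 32 of 77 CD8 cells. There the intervals of DN and DP overlapped. In the other series it was open in 4 of 23, 3 of 22, 11 of 41 and 4 of 14 cells, with all intervals overlapping. Over all cells it was the 1 member higher in DN than in DP by expected shares.

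**Figure D4:**
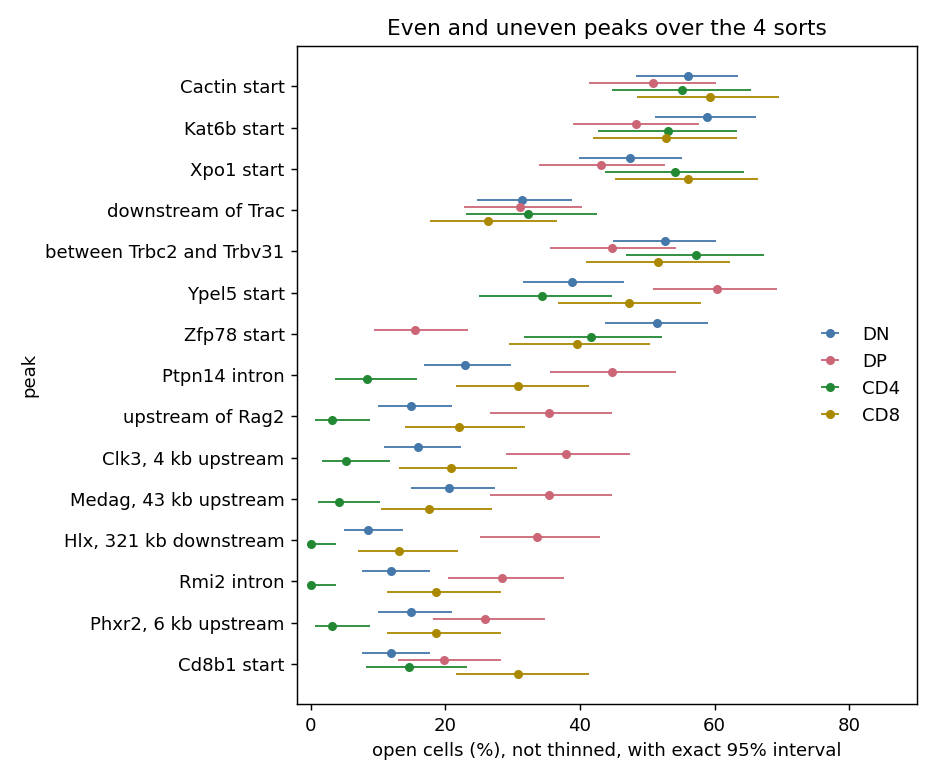
Share of open cells (x axis, percent, not thinned) in DN, DP, CD4 and CD8 cells for selected members (y axis), with exact 95% intervals. The upper 5 have overlapping intervals in all sorts, Zfp78 is lowest in DP at 15.5%, and the 7 peaks from the Ptpn14 intron to Phxr2 are highest in DP and lowest in CD4.

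At the other end, the 10 members with the smallest ratio among those open in 50% or more of total cells held 8 promoters. The Cactin promoter was open in 56.0% of DN, 50.9% of DP, 55.2% of CD4 and 59.3% of CD8 cells, and in 19.4%, 19.0%, 19.8% and 19.8% once thinned. Xpo1, the gene of a nuclear export receptor, was at 47.4%, 43.1%, 54.2% and 56.0%, and Kat6b at 58.9%, 48.3%, 53.1% and 52.7%. Sharpin, Rbm39, Mtmr12, Zfp367 and Fam76b made up the rest of the promoters, with shares of 24.1 to 53.8% in the sorts. These peaks were named for their small ratio, so their evenness is a description.

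The 2 peaks of this group away from a start were the one upstream of Zbtb20 and one centred 3.40 kb past the end of Trac, the constant region gene of the T cell receptor α chain. The T cell receptor α enhancer is known to lie past this gene. The peak was open in 70.4% of total cells (67.6 to 73.1%), but in 31.4% of DN, 31.0% of DP, 32.3% of CD4 and 26.4% of CD8 cells, and at 10.3%, 10.3%, 10.4% and 9.89% once thinned. The label series were less alike. Thinned shares within numbers starting with 4 were 6.67%, 6.35%, 5.45% and 5.19%. Within those starting with 31 they were 30.4%, 4.55%, 14.6% and 35.7%, of 23, 22, 41 and 14 cells. At the β locus, where an enhancer is known to lie past Trbc2, a peak centred 6.24 kb past the end of Trbc2 was open in 67.5% of total cells and in 52.6%, 44.8%, 57.3% and 51.6% of the sorts, with overlapping intervals.

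Members away from a start numbered 288, of which 185 were intergenic, 89 in introns and 14 in exons. Their median distance from a coding start was 19742.5 bp, and 38 lay over 100000 bp away. The median share without thinning was 23.4% in DN, 24.1% in DP, 22.9% in CD4 and 25.3% in CD8 cells, against 26.9%, 21.6%, 26.0% and 25.3% for members at a start. The spread was widest in CD4 cells, where members away from a start ran from 4.17% at the 5th percentile to 49.0% at the 95th and those at a start from 11.5 to 45.8%. Of these, 12 had a gene of T cell identity or stage as their nearest, among them 2 at Tcf7, which encodes TCF1. The peak in an intron of Tcf7 was open in 19.4%, 32.8%, 19.8% and 26.4% of DN, DP, CD4 and CD8 cells, and the peak 31222 bp upstream in 28.0%, 25.0%, 40.6% and 30.8%. A peak 3842 bp upstream of Cd8a was at 9.71%, 26.7%, 7.29% and 25.3%, high in DP and CD8, and a peak 4885 bp downstream of the Cd3d start at 26.3%, 14.7%, 41.7% and 28.6%, highest in CD4. A peak near Rhoh, a signalling gene of the receptor pathway, was at 15.4%, 31.0%, 8.33% and 18.7%.

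The sort labels were checked by counts within 10000 bp of marker starts, per 100000 counts. Rag1 stood at 20.1 in DP against 4.89 in DN, 0 in CD4 and 4.93 in CD8, and Rag2 also stood at 0 in CD4. The CD4 list stood at 80.0 in CD4 against 39.5 to 50.0 in the others. The CD8 list stood at 102 in CD8 against 81.2 in CD4 and 110 in DP, a stage that also expresses Cd8a and Cd8b1. The DN list stood at 33.1 in DN, above CD8 (29.4) and CD4 (19.4) but below DP (39.4), so the DN label rests on the submitters' words. Markers not expected in any sort stood at 2.33 to 10.5, highest in CD4 through Lyz2 at 6.42, and their part in the results above was not tested.

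Whether genes with such promoters are transcribed in the thymus was examined in the scRNA-seq table of 1993 cells and 8846 genes, where 8392 genes matched a coding gene by symbol. Of the 1863 genes with a member at a start, 1568 (84.2%) were in the table, against 79.6% of the genes of the next 2000 peaks, 55.8% of those with another peak and 2.37% of those with none. The genes with a member were detected (value above 0) in a median of 18.2% of the cells, those of the next 2000 peaks in 16.8%, those with another peak in 12.5%, and all 6824 other coding genes of the table in 12.8%. Detection varied widely among the genes with a member, from 0.552 to 100.0% of cells, and 216 of them (13.8%) were detected in 50% or more. Detection differed widely among genes of the promoters with the highest shares. Dnpep was detected in 16.2% of cells, Kat6b in 12.2%, Sp1 in 12.3% and Cactin in 19.1%. Rnf5 (29.6%) and Stip1 (29.1%) were higher, and Hspa8 (89.7%) and Rbm39 (95.7%) were detected in most cells. Satb1 (96.8%), Cd3g (96.6%) and Ets1 (82.2%) were detected in most cells too, with promoters lower in rank. From ranks 1 to 500 to ranks 1501 to 2000 the median detection was 19.9%, 17.0%, 17.5% and 18.2% by blocks of 500 ranks, with no steady order. Open cells and detected cells come from separate cells and libraries, and both depend on depth. How doublets were treated is not given in the sources used here, and none were removed for these values.

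**Figure D5:**
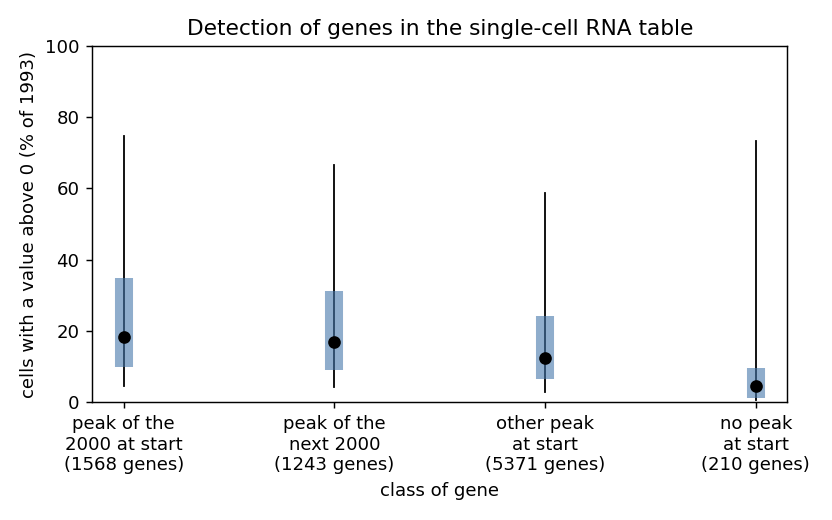
Percent of 1993 cells in which a gene was detected (y axis) by the peak at its start (x axis), for coding genes in the scRNA-seq table. Points are medians (18.2%, 16.8%, 12.5% and 4.39%), bars the quartiles and lines the 5th to 95th percentiles over genes.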

How the data were processed

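Thymocytes of male mice were profiled by scATAC-seq and scRNA-seq. For scATAC-seq the authors trimmed adapters, aligned reads (Bowtie2), dropped duplicates (Picard) and merged all cells for peak calling (MACS2). The deposited values are unnormalized counts, 1 for each peak in each cell. The authors processed the scRNA-seq reads with Cell Ranger (version 1.3.1 per the labels), filtered cells and genes, and deposited quantile-normalized log2 values. Peak positions were read as GRCm38, since 26.0% of centres lay within 2000 bp of a coding start, against 7.71% after a shift of 100000 bp. Starts were those of GENCODE vM21 basic transcripts, and sequence came from the RefSeq GRCm38 assembly.

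Columns of 1626 cells were used, and 362 were not analysed here, most of them total thymocytes whose names lack a series number, which had been planned as a further group. The 10 named regions of each kind (highest share, largest ratio, smallest ratio), the peaks around the limit and the listed genes were taken by rules, and 1 item they gave is not reported here. The members, lists and rules were chosen with earlier results of these data known. Shares were computed in Python 3.11.15 (numpy 2.4.6, scipy 1.17.1, pandas 2.3.3), with cells thinned to 1000 counts and exact Clopper-Pearson intervals at 95%. For ratios a share of 0 was set to 3 cells of the sort. The calls were tested on simulated data. Cells are no replicates, so no p-value was computed, and intervals cover counting error only. Alternatives were other thinnings, limits, folds, distances, windows and label series.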

Additional observations from a re-analysis of the deposited data

How the results depend on the processing

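No paired analysis was possible because each group is 1 sample and no test was run. Values within the label series that hold all 4 sorts are given instead. Of 159 values recomputed under alternatives, 88 stayed within the limits set for them and 71 moved, and for the moved values the cause was not tested beyond what the setting itself changes. Requiring a 2-fold difference, centring the ratios or keeping 1 peak per run moved none. Without thinning the median shares were 39.7% (total), 26.9% (DN), 21.6% (DP), 26.0% (CD4) and 25.3% (CD8), and members past the fold numbered 269 over the 4 sorts, 107 higher and 27 lower in DN than in DP, 53 and 49 in CD4, and 36 and 7 in CD8. Over all peaks tested without thinning, 4.13% were higher and 0.727% lower in DN than in DP, 5.61% and 1.12% in CD4, and 2.82% and 0.203% in CD8. With 2000 counts per cell the medians were 16.9% (total), 11.4% (DN) and 12.6% (DP), and 8 members were higher and 37 lower in DN and 41 lower in CD4. Within label numbers starting with 4, the DN list shared 716 peaks, and 21 members were past the fold, with 0 higher and 0 lower in DN, 4 lower in CD4, and 3 higher and 5 lower in CD8. Within those starting with 31, the lists shared 615 (DN), 681 (DP) and 476 (CD8), members held 21.0% of DP counts, and 5 were past the fold, with 0 higher and 1 lower in DN, 0 and 5 in CD4, and 0 and 1 in CD8. Another random thinning, chosen after seeing the data, gave 8 higher and 27 lower in DN and 7 lower in CD8. The expected thinned share, also chosen after seeing the data, gave 21 in all, 1 and 6 in DN, 0 and 9 in CD4, and 0 and 0 in CD8. With 1000 peaks taken the lists shared 551, 502, 444 and 449 (DN, DP, CD4, CD8), and with 4000 peaks 2386, 2285, 1949 and 1960. Members at a start were 82.2% within 500 bp, 87.2% within 2000 bp and 89.6% for genes of any type. In the central 1000 bp the motif shares were 1.85% (CTCF), 10.1% (ETS), 5.65% (NRF1), 44.85% (SP), 7.60% (YY1), 6.05% (CRE), 79.05% (NFY), 12.1% (E2F), 4.15% (RUNX), 8.40% (TCF1 and LEF1), 40.85% (E protein), 5.45% (GATA) and 12.55% (AP-1). With a value above 1 as detection the median was 3.26% of cells. The number of cells and the depth limit single peaks, and a typical thinned share rests on 5 to 10 open cells.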

Other observations

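The fewest open CD4 cells among the 2000 peaks most often open were at 4 members with 0 of 96 CD4 cells before thinning, for which the exact interval ends at 3.77%. Beside the peaks near Hlx and Rmi2, these were a peak 2834 bp from Fbxl12, which was open in 38.5% of total cells, and a peak 48377 bp from Mef2a, open in 36.8%. No other sort had a member that was open in none of its cells before thinning.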
